A study of Mus musculus with 14 samples.

Results

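The genes described here are 9 mouse genes of the interferon response, Ifitm2, Ifitm3, Ifit1, Ifit2, Ifit3, Isg15, Irf7, Irf9 and Bst2, named by symbol and found by Ensembl identifier. All 9 were among the 15119 genes listed in the deposited expression table, and all 9 passed the filter on low values. RNA had been sequenced from GFP-positive cells of the adult dentate gyrus, the neurogenic region of the hippocampus, in untreated mice, with B6.Cg-Tg(Nes-EGFP)1Yamm as their strain. These mice carry enhanced green fluorescent protein under regulatory elements of Nestin, an intermediate filament gene of neural stem and progenitor cells, so every library comes from transgenic cells and GFP marks any cell in which those elements are active. GFP and dihydroethidium fluorescence, the dye shining red once oxidized by superoxide and other reactive oxygen species (ROS), divided the cells into the classes ROS+ (5 libraries), ROS++ (5 libraries) and ROS+++ (4 libraries). Sex, exact age and the number of animals per library are not stated in the labels. Because nothing says that replicates came from separate animals, p-values measure the spread between these samples only, which may be technical.

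Interferons are secreted proteins that cells release on sensing viral nucleic acid. Type I interferons bind a receptor of the subunits IFNAR1 and IFNAR2, the kinases JAK1 and TYK2 then phosphorylate STAT proteins, and these join IRF9 into a complex that binds interferon-stimulated response elements (ISREs) near its target genes. The products act against viruses in several ways. IFITM proteins sit in plasma and endosomal membranes and hinder the fusion of virus with them. IFIT proteins bind viral RNA or the translation machinery, ISG15 is a ubiquitin-like modifier, BST2 (tetherin) holds budding virus at the cell surface, and IRF7 is a transcription factor that amplifies interferon production. In stem cells, IFITM genes are known to be expressed without infection.

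Of the members, 6 lie in a pair of gene clusters or near one. Ifitm2 (chr7:140954837-140955987) and Ifitm3 (chr7:141009586-141010770) lie in 1 cluster, with Irf7 (chr7:141262706-141266481) further along, and Ifit2 (chr19:34550694-34576419), Ifit3 (chr19:34583531-34588731) and Ifit1 (chr19:34640871-34650009) form another (mm10). Isg15 (chr4:156199424-156200818), Irf9 (chr14:55603571-55610030) and Bst2 (chr8:71534255-71537456) stand alone. RefSeq promoter windows (GRCm38.p6, 250 bases before to 50 bases after each start) were found for all 9 genes, 11 windows in all, and were searched on both strands for the ISRE core, which is GAAA, any 2 bases and GAAA again (reverse complement TTTC, any 2 bases, TTTC). A match stood in 6 of the 11 windows, those of 6 different members, against 3.44% of all 32851 promoter windows. For each of the 5 IFITM and IFIT genes 1 window follows, written 5′ to 3′ with matches in capitals.
Ifitm2, chr7:140955912-140956211, minus strand: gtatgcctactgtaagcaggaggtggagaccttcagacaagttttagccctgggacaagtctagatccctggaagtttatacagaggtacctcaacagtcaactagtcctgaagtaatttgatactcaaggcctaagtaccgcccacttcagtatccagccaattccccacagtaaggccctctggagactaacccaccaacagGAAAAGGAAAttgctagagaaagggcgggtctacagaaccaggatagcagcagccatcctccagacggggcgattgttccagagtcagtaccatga
Ifitm3, chr7:141010695-141010994, minus strand: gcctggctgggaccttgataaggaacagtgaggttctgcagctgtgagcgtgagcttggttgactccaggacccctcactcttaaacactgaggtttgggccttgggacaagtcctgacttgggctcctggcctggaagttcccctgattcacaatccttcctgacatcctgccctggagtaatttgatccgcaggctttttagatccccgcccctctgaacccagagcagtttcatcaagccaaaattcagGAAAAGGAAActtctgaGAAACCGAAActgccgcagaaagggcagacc
Ifit1, chr19:34640639-34640938, plus strand: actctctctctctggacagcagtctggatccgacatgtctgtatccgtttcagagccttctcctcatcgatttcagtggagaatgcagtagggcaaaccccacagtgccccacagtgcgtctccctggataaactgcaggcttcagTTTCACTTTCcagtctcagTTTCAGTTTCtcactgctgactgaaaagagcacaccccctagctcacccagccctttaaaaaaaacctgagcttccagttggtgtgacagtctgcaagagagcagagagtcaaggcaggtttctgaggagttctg
Ifit2, chr19:34550444-34550743, plus strand: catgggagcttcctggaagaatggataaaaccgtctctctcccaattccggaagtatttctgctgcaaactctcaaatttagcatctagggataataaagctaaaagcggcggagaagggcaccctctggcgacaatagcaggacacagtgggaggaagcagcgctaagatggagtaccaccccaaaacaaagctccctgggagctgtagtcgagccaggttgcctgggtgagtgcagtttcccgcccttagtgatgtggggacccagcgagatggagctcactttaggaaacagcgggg
Ifit3, chr19:34583279-34583578, plus strand: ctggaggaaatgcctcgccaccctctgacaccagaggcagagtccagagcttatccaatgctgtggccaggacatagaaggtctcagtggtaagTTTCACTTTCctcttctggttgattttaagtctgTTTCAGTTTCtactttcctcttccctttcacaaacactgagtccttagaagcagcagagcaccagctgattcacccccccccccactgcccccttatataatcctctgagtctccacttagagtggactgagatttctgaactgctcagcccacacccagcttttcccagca
Matches numbered 1 for Ifitm2 and 2 each for Ifitm3, Ifit1 and Ifit3, and the window printed for Ifit2 held none, nor did its other one. Both Ifit2 windows lie at the first end of the gene, the other one at chr19:34550838-34551137. Sequence further along its span, which ends at 34576419, was not searched, so a match near a later start is not excluded. Isg15 had 3 overlapping matches and Bst2 2, while the windows of Irf7 and Irf9 held none of these letters. The core TTCNNNGAA of gamma-activated sites stood in 3 of the 11 windows (8.3% of all windows), 1 each of Ifitm3, Ifit2 and Bst2. A match of letters is a description of the sequence and shows no binding. Its relation to the levels of these genes across the classes was not tested.

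Depth over the listed genes was between 20832009 and 25313902 reads in ROS+, between 18325361 and 23454022 reads in ROS++, and between 12704227 and 20998589 reads in ROS+++. Levels are CPM, reads per 1000000 reads of these totals, given as mean ± SD over 5, 5 and 4 libraries. Changes are differences of log2(CPM + 1) ± standard error (SE), which understate the change of genes near 0, and calls are limma adjusted p-values under 0.05 over 15102 tested genes. A count of 0 allows up to 3 reads, 0.119 to 0.236 CPM depending on the library, and covers counting error only. The median change of all genes was -0.03 for ROS++ minus ROS+, -0.44 for ROS+++ minus ROS+ and -0.34 for ROS+++ minus ROS++. Scaling by TMM, relative log expression or upper-quartile factors raised the median by 0.34, 0.40 and 0.27 for ROS+++ minus ROS+ and by 0.29, 0.37 and 0.25 for ROS+++ minus ROS++. With these factors 48.0, 50.7 and 43.9% of calls were higher in ROS+++ than in ROS+, against 32.5% with library totals. Between ROS+++ and ROS++ the shares were 46.4, 52.2 and 42.4%, against 25.3%. In bulk libraries such as these, fewer cells of a type and less RNA per cell cannot be told apart.

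Most of the 9 genes rose in ROS++ and in ROS+++ against ROS+, but by different courses. Ifitm2, Ifitm3 and Isg15 rose again in ROS+++ against ROS++, though the call of Isg15 depended on single libraries. Ifit1, Ifit3, Bst2, Irf7 and Irf9 did not pass the test at that step, and Ifit2 fell. In ROS++ against ROS+, 8 of 9 members rose and none fell, where 29.6% of all tested genes were called, 16.4% higher and 13.2% lower. In ROS+++ against ROS+, 7 rose and 1 fell (all genes 59.2% called, 19.2% higher and 40.0% lower). In ROS+++ against ROS++, 3 rose, 1 fell and 5 did not pass the test (all genes 39.1% called, 9.89% higher and 29.2% lower). The median change of the members was 2.08, 2.44 and 0.53 in these comparisons. Libraries did not overlap, with ROS++ above ROS+, in 5 members and with ROS++ below in 0 (all genes 12.1% above and 10.9% below). For ROS+++ and ROS+ this held for 6 members above and 0 below (all genes 16.8% above and 33.2% below). For ROS+++ and ROS++ it held for 2 members above and 0 below (all genes 27.0% in either direction, 7.48% above and 19.5% below). The F-test over the classes called all 9, against 61.5% of all genes. Since the comparisons share samples, their values are set side by side here and not counted as independent evidence.

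**Figure D1:**
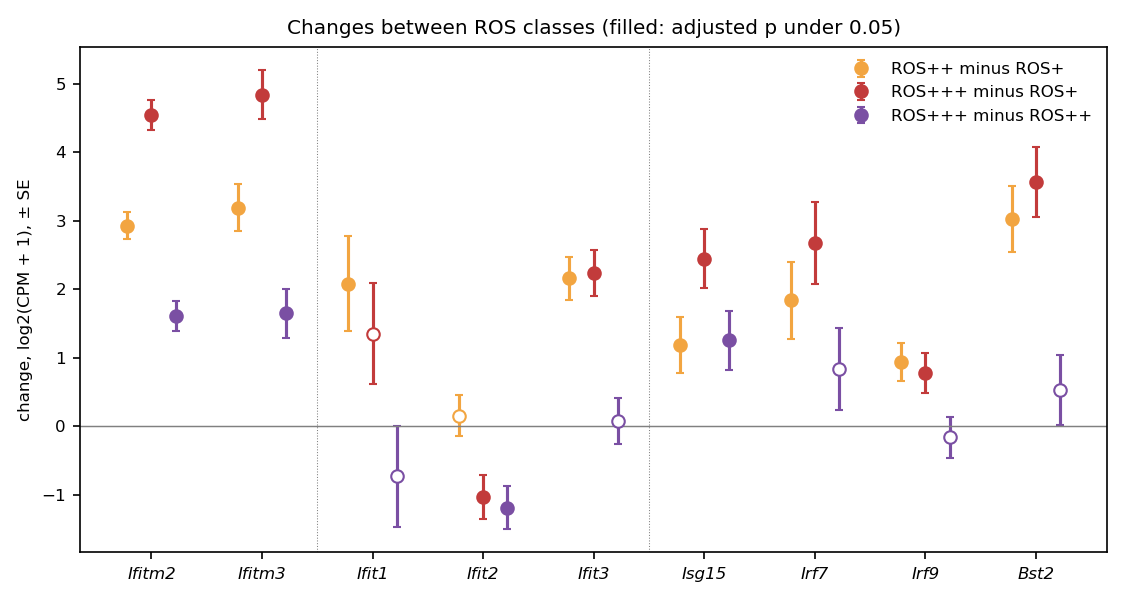
Changes of the 9 genes between ROS classes on the log2(CPM + 1) scale (points) with the SE of the limma model (bars), for 3 comparisons in 3 colours, where filled points passed an adjusted p under 0.05. Ifitm2 and Ifitm3 are above 0 in every comparison, while Ifit2 is below 0 wherever ROS+++ is compared.

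The IFITM genes, whose products hinder the entry of enveloped viruses at cellular membranes, rose at both steps. Ifitm3 (ENSMUSG00000025492) stood at 43.3, 23.2, 18.6, 54.6 and 19.1 CPM in the 5 ROS+ libraries, at 571, 267, 233, 299.6 and 139 CPM in ROS++, and at 882, 839, 921 and 781 CPM in ROS+++. No class overlapped another, and the lowest ROS++ library lay above the highest ROS+ library. The means were 31.8 ± 16.3, 302 ± 162 and 856 ± 60.0 CPM. Ifitm3 rose by 3.19 ± 0.34 between ROS++ and ROS+ (limma adjusted p = 4.18e-06), and by 1.65 ± 0.36 between ROS+++ and ROS++ (adjusted p = 0.00199). Across both steps, ROS+++ exceeded ROS+ by 4.84 ± 0.36 (adjusted p = 2.31e-08), a ratio of mean CPM of 26.9.

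Ifitm2 (ENSMUSG00000060591) followed the same course, with 32.2, 18.4, 25.4, 26.6 and 17.2 CPM among ROS+ libraries, 302, 158, 161, 212 and 132 CPM among ROS++ libraries, and 577, 582, 605 and 506 CPM among ROS+++ libraries. Again no class overlapped another. It rose by 2.93 ± 0.20 between ROS++ and ROS+ (adjusted p = 7.85e-09), by 4.54 ± 0.21 between ROS+++ and ROS+ (1.82e-11) and by 1.61 ± 0.21 between ROS+++ and ROS++ (1.53e-05), in limma. The ratio of Ifitm3 to Ifitm2 in CPM had a median of 1.26, 1.45 and 1.53 in ROS+, ROS++ and ROS+++. Over libraries it lay between 0.735 and 2.05 in ROS+, between 1.05 and 1.89 in ROS++, and between 1.44 and 1.54 in ROS+++. The coefficient of variation of Ifitm3 was 51.2, 53.6 and 7.01%. Of the 50-base windows of Ifitm2 transcripts, 48.5% also occur in transcripts of other genes, mostly the overlapping Gm45717, which is not among the listed genes, against 10.02% for Ifitm3. How reads shared by such copies were counted is not given in the sources used here, so that single values of Ifitm2 carry this uncertainty.

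Per kilobase of annotated exon, Ifitm3 reached 46.9 ± 24.0, 445 ± 239 and 1262 ± 88.5 CPM per kb in ROS+, ROS++ and ROS+++. This level was higher than that of 92.2, 99.6 and 99.9% of the listed genes in the same class. Ifitm1, another gene of the cluster and not one of the 9, changed in the same direction at both steps, with 3.73 ± 2.76, 149.8 ± 64.8 and 541.4 ± 65.4 CPM. Its change was 5.19 ± 0.43 between ROS++ and ROS+ (limma adjusted p = 1.47e-07) and 1.94 ± 0.45 between ROS+++ and ROS++ (0.00278). Ifitm10, a more distant family member, stood at -0.19 ± 0.32 between ROS++ and ROS+ (adjusted p = 0.707) and fell by 3.35 ± 0.34 between ROS+++ and ROS++ (adjusted p = 1.03e-06), to 1.23 ± 0.771 CPM in ROS+++ against 22.4 ± 10.5 CPM in ROS++.

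**Figure D2:**
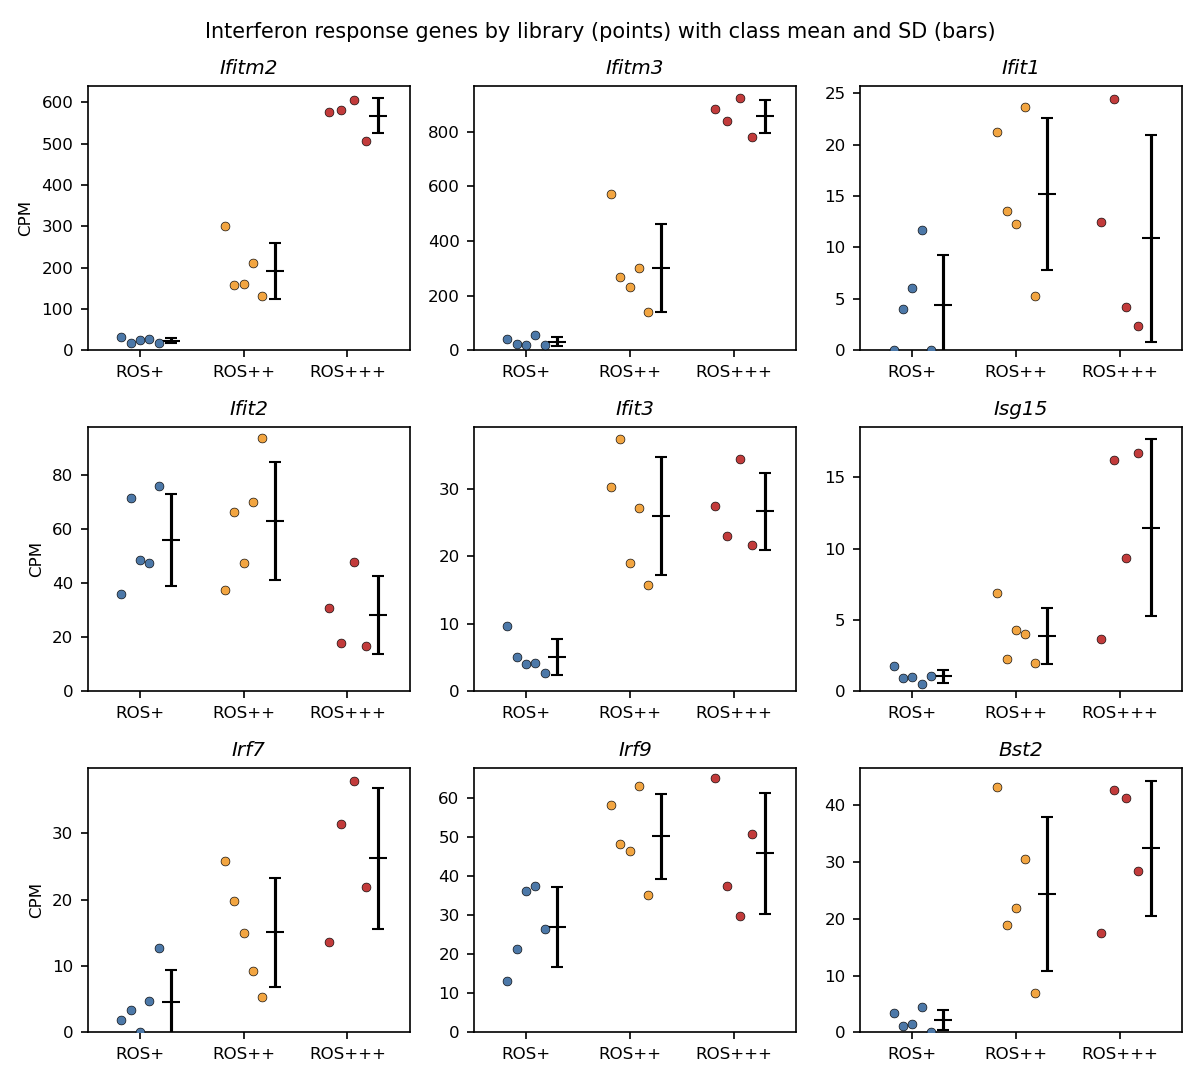
CPM of each of the 9 genes (1 panel per gene) in every library (points) of the classes ROS+, ROS++ and ROS+++, with the class mean and SD beside the points (bars, drawn down to 0 where the SD exceeds the mean). Points of Ifitm2 and Ifitm3 separate by class, and those of Ifit1, Ifit2 and Irf9 mix. Those of Ifit3, Isg15 and Bst2 separate ROS+ from the other classes only, and those of Irf7 separate ROS+ from ROS+++ only.

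The IFIT genes did not share this course, nor a common one. Ifit3 (ENSMUSG00000074896), whose product binds IFIT1 and stabilizes it on RNA in humans, measured 9.68, 5.04, 4.06, 4.18 and 2.72 CPM among ROS+ libraries, 30.3, 37.4, 19.1, 27.1 and 15.7 CPM among ROS++ libraries, and 27.5, 23.02, 34.4 and 21.6 CPM among ROS+++ libraries. All libraries of ROS++ and of ROS+++ lay above all of ROS+, and those of ROS++ and ROS+++ overlapped. Ifit3 rose by 2.16 ± 0.32 between ROS++ and ROS+ (limma adjusted p = 4.55e-05) and by 2.24 ± 0.33 between ROS+++ and ROS+ (1.77e-05). ROS+++ against ROS++ showed a change of 0.08 ± 0.33 (adjusted p = 0.868). Ifit3b, a near copy in which 51.2% of the 50-base windows of Ifit3 transcripts recur, was called higher in the same comparisons, with 2.78 ± 1.07, 12.3 ± 5.58 and 11.3 ± 7.501 CPM, so the split of reads between both genes is uncertain.

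Ifit1 (ENSMUSG00000034459), which binds viral RNA that lacks the methylated cap of host messages, was variable. It stood at 0.0790, 3.98, 6.11, 11.7 and 0 CPM in ROS+, the first value being 2 reads, at 21.2, 13.6, 12.3, 23.7 and 5.24 CPM in ROS++, and at 12.5, 24.4, 4.19 and 2.36 CPM in ROS+++. Every pair of classes overlapped. Ifit1 rose by 2.08 ± 0.70 between ROS++ and ROS+ (limma adjusted p = 0.0309), while ROS+++ against ROS+ stood at 1.35 ± 0.74 (0.124) and ROS+++ against ROS++ at -0.73 ± 0.74 (0.458). Leaving out ROS+ replicates 1 or 5 ended the ROS++ call (limma adjusted p = 0.0889 and 0.0970), as did leaving out ROS++ replicates 1, 2, 3 or 4 (0.0691, 0.0517, 0.05001 and 0.0739) and the deposited log2 scale (0.0510). Across alternatives the adjusted p in limma lay between 0.00992 and 0.0970. Without ROS+ replicate 4, ROS+++ against ROS+ passed at 1.82 (adjusted p = 0.0396, range 0.0396 to 0.368).

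Ifit2 (ENSMUSG00000045932), a relative that in humans promotes apoptosis and binds AU-rich RNA, was the member that fell. Its values were 36.1, 71.5, 48.6, 47.5 and 75.95 CPM among ROS+ libraries, 37.7, 66.4, 47.4, 70.2 and 93.9 CPM among ROS++ libraries, and 30.7, 18.1, 47.96 and 16.7 CPM among ROS+++ libraries. Of the ROS+++ libraries, 3 lay below every library of the other classes, and ROS+++ replicate 3 lay among them. The change between ROS++ and ROS+ was 0.16 ± 0.30 (limma adjusted p = 0.741). Ifit2 fell by 1.18 ± 0.32 between ROS+++ and ROS++ (adjusted p = 0.00668) and by 1.03 ± 0.32 between ROS+++ and ROS+ (0.0101). The fall against ROS+ lost its call with TMM (adjusted p = 0.0953), relative log expression (0.131) and upper-quartile factors (0.0578), over a range of 0.00171 to 0.131. The fall against ROS++ lost it with relative log expression factors (0.0703, range 0.00143 to 0.0703). Its direction was the same with all of these factors. Ifit2 transcripts share no 50-base window with another gene.

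Set against each other per exon length, summed IFITM transcripts stood higher over summed IFIT transcripts in each higher class. The sum of Ifitm2 and Ifitm3 had a median of 66.2, 634 and 2154 CPM per kb in ROS+, ROS++ and ROS+++, and the sum of Ifit1, Ifit2 and Ifit3 one of 18.9, 35.0 and 27.6 CPM per kb. Ifit2, the member that fell, made up most of the IFIT sum in ROS+. It averaged 14.2, 16.1 and 7.22 CPM per kb, against 2.94, 14.9 and 15.3 for Ifit3 and 1.65, 5.72 and 4.09 for Ifit1. The ratio of sums therefore mixes the course of Ifit2 with the different courses of Ifit1 and Ifit3. The IFITM sum was 7.65, 2.76, 3.90, 6.41 and 2.61 times the IFIT sum in the ROS+ libraries, 37.3, 14.6, 21.3, 18.1 and 11.7 times in ROS++, and 77.1, 78.8, 68.1 and 109.8 times in ROS+++. These ratios of levels did not overlap between any classes, and they are free of the scaling between libraries because both sums come from the same library. The IFITM pair made up 64.03 to 82.6% of the summed CPM per kb of all 9 genes in ROS+ libraries, 88.4 to 92.2% of it in ROS++ libraries and 95.04 to 96.97% of it in ROS+++ libraries. The ratio is given as a description, and the difference between the changes of IFITM and IFIT genes was not tested.

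**Figure D3:**
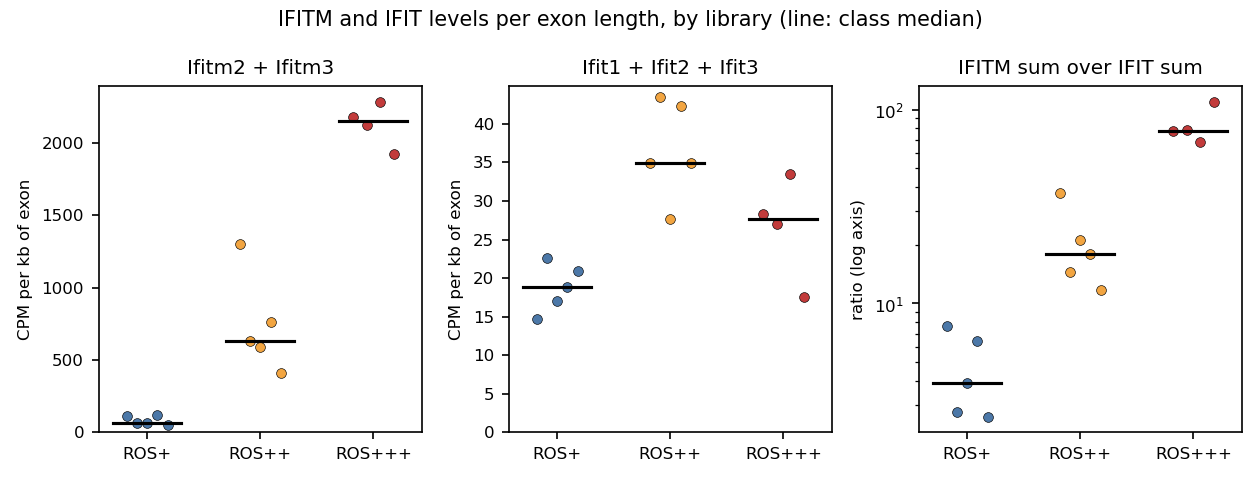
Summed CPM per kb of exon of Ifitm2 and Ifitm3 (left), of Ifit1, Ifit2 and Ifit3 (middle), and their ratio on a log axis (right) in each library (points), with class medians (lines). The ratio lies between 2.61 and 7.65 in ROS+, between 11.7 and 37.3 in ROS++, and between 68.1 and 109.8 in ROS+++.

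Of the other members, Bst2 (ENSMUSG00000046718), the tetherin gene, came nearest to the IFITM pair. It stood at 3.397, 1.20, 1.52, 4.43 and 0.0469 CPM among ROS+ libraries, 43.2, 18.996, 21.8, 30.6 and 6.98 CPM among ROS++ libraries, and 17.5, 42.6, 41.3 and 28.4 CPM among ROS+++ libraries. Every ROS++ and ROS+++ library was above every ROS+ library, and ROS++ and ROS+++ overlapped. Bst2 rose by 3.03 ± 0.48 between ROS++ and ROS+ (limma adjusted p = 0.000112) and by 3.56 ± 0.51 between ROS+++ and ROS+ (1.15e-05). ROS+++ against ROS++ gave a change of 0.53 ± 0.51 (adjusted p = 0.436).

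Isg15 (ENSMUSG00000035692), the ubiquitin-like modifier and in many cells a sensitive marker of interferon exposure, measured 1.78, 0.912, 1.03, 0.512 and 1.08 CPM among ROS+ libraries, 6.91, 2.25, 4.31, 3.99 and 2.02 CPM among ROS++ libraries, and 3.68, 16.2, 9.33 and 16.7 CPM among ROS+++ libraries. ROS+ was below both other classes without overlap, and ROS+++ replicate 1 lay within the ROS++ range. Per length this is 1.40 ± 0.606, 5.15 ± 2.604 and 15.2 ± 8.18 CPM per kb, against 1262 CPM per kb for Ifitm3 in ROS+++. The level per length was higher than that of 24.5% of the listed genes in ROS+, 51.03% in ROS++ and 79.6% in ROS+++. Isg15 rose by 2.44 ± 0.43 between ROS+++ and ROS+ (limma adjusted p = 0.000102), by 1.19 ± 0.41 between ROS++ and ROS+ (0.0347) and by 1.26 ± 0.43 between ROS+++ and ROS++ (0.0272). Both smaller calls depended on single libraries. The one for ROS++ against ROS+ ended on leaving out ROS+ replicates 2, 3, 4 or 5 (limma adjusted p = 0.0667, 0.0641, 0.0815 and 0.0624) or ROS++ replicates 1, 3 or 4 (0.0876, 0.0671 and 0.0640). A pseudocount of 4 CPM (0.0786) and limma-voom (0.0770) ended it too, within limits of 0.0164 and 0.0876 over all alternatives. The one for ROS+++ against ROS++ ended on leaving out ROS++ replicates 2 or 5 (limma adjusted p = 0.0633 and 0.0590) or ROS+++ replicates 2 or 4 (0.0898 and 0.0863). The deposited scale (0.0659), limma-voom (0.0592) and a fit of these classes alone (0.0662) ended it too, within limits of 0.00369 and 0.0898.

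The transcription factor genes moved less evenly. Irf7 (ENSMUSG00000025498), the amplifier of interferon production, had 1.90, 3.41, 0, 4.69 and 12.7 CPM among ROS+ libraries, 25.8, 19.9, 14.97, 9.30 and 5.35 CPM among ROS++ libraries, and 13.6, 31.4, 37.9 and 21.96 CPM among ROS+++ libraries. ROS+++ lay above ROS+ without overlap, whereas ROS+ replicate 5 exceeded 2 of the ROS++ libraries. Irf7 rose by 2.68 ± 0.60 between ROS+++ and ROS+ (limma adjusted p = 0.000899) and by 1.84 ± 0.56 between ROS++ and ROS+ (0.0192), and ROS+++ against ROS++ stood at 0.84 ± 0.60 (0.282). Its call for ROS++ against ROS+ ended on leaving out ROS++ replicate 1 (limma adjusted p = 0.0539) or ROS+ replicate 3 (0.0556) and on the deposited scale (0.0619), within limits of 0.00399 and 0.0619.

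Irf9 (ENSMUSG00000002325), the DNA-binding partner of STAT proteins, had the smallest rises among the called members. It stood at 13.1, 21.5, 36.3, 37.5 and 26.4 CPM among ROS+ libraries, 58.3, 48.3, 46.4, 63.0 and 35.1 CPM among ROS++ libraries, and 65.1, 37.5, 29.9 and 50.8 CPM among ROS+++ libraries, with overlap in every pair of classes. Irf9 rose by 0.94 ± 0.28 between ROS++ and ROS+ (limma adjusted p = 0.0167) and by 0.78 ± 0.30 between ROS+++ and ROS+ (0.0315), and ROS+++ against ROS++ was -0.16 ± 0.30 (0.694). Its call for ROS+++ against ROS+ ended on leaving out ROS+ replicates 1 or 2 (limma adjusted p = 0.0910 and 0.0641) or ROS+++ replicates 1 or 4 (0.114 and 0.0763) and with the replicate block of library numbers (0.0785), within limits of 0.00171 and 0.114. Exons of Irf9 overlap those of Rnf31 by 123 bases on the same strand, and exons of Irf7 overlap those of Phrf1 by 45 bases on the other strand, so reads there are uncertain between the genes.

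Within classes the members also differed between libraries. In ROS++, replicate 5 was the lowest library for 8 of 9 members and the highest for Ifit2, and replicate 1 was the highest for 5 members. Without ROS++ replicate 1, 5 members in place of 8 were called between ROS++ and ROS+. In ROS+++, replicate 4 was lowest for 5 members and replicate 3 highest for 5. In ROS+, replicate 5 was lowest for 4 members and highest for 2, and replicate 4 was highest for 4. By consecutive library numbers, ROS+++ replicates 1 to 4 follow replicates 2 to 5 of the other classes. ROS+++ replicate 4 thus goes with replicate 5 of ROS+ and ROS++, each lowest for more members than any other library of its class. Whether these libraries were processed together was not tested. The closest pair among the members was Ifitm2 and Ifitm3, with a root-mean-square difference of 0.35 between their centred log2(CPM + 1) values over 14 libraries. The farthest was Ifitm3 and Ifit2 at 2.51. Of the IFIT genes, Ifit3 lay nearer to Bst2 (0.82) than to Ifit1 (1.28) or Ifit2 (1.498).

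Marker genes of cell types that the sort could hold differed between the classes in the same libraries. Of all tested genes, 16.4% were called higher and 13.2% lower in ROS++ than in ROS+. In ROS+++ against ROS+ these shares were 19.2 and 40.0%. All 15 mural cell markers (pericyte and smooth muscle, such as Pdgfrb and Rgs5) were called higher in ROS++ and in ROS+++ than in ROS+, and their summed level lay between 202 and 737 CPM in ROS+, between 8717 and 25370 CPM in ROS++, and between 56510 and 65429 CPM in ROS+++. Of 19 listed microglia and macrophage markers, 18 were higher in ROS++ and 19 in ROS+++ than in ROS+, with summed levels of 30.5 to 40.4, 1182 to 2945 and 928 to 3582 CPM. For 14 endothelial markers, 2 were higher in ROS++ and 7 in ROS+++ than in ROS+ (all genes 16.4 and 19.2%), and the sums were 169 to 477, 227 to 652 and 1440.0 to 1718 CPM. Most of the sum in ROS+++ came from Esam (18.2, 223 and 940.0 CPM) and Emcn (9.82, 70.4 and 261 CPM), whereas Pecam1 averaged 15.1, 6.66 and 11.7 CPM and Cldn5 2.47, 2.25 and 3.22 CPM. Flt1 (17.6, 37.6 and 63.3 CPM), Tek (8.72, 8.15 and 26.3 CPM) and Slco1a4 (29.6, 37.0 and 80.4 CPM) also averaged more in ROS+++ than in ROS+. In that comparison 7 of the 14 endothelial markers were not called and 0 were lower. All 12 neuronal precursor markers were lower in ROS+++ than in ROS+, with 12214 to 17718, 1142 to 2691 and 37.2 to 237 CPM. Of 9 fibroblast markers, 6 were higher and 0 lower in ROS++ than in ROS+, and 6 were higher and 1 lower in ROS+++ than in ROS+, with median changes of 3.61 and 4.25. Their sums of 941 to 1455, 1146 to 2005 and 697 to 1221 CPM were mostly Pdgfra in ROS+ and ROS++. Pdgfra averaged 1171, 1157 and 79.5 CPM, so the sums in ROS+ and ROS++ mainly follow this 1 gene. Slc6a13 averaged 7.02, 93.9 and 326 CPM, and Dcn, Col1a2, Col3a1, Igf2 and Ogn also averaged most in ROS+++. Lum (1.95, 15.4 and 3.49 CPM) and Col1a1 (0.975, 12.2 and 2.77 CPM) averaged most in ROS++. Of 13 radial glia markers, 12 were higher in ROS++ than in ROS+, and 10 were higher and 2 lower in ROS+++ than in ROS+, with sums of 1077 to 1634, 5560.4 to 7860.0 and 2480 to 5985 CPM. Of these, 1 radial glia marker was at or below 3 reads in every ROS+ library, and 0 other markers of these lists were so in any class. Among the 9 lymphocyte and neutrophil markers looked up, none was among the listed genes. Nes itself averaged 16.6 ± 4.63, 95.5 ± 18.8 and 227 ± 77.7 CPM. Within ROS++, replicate 1 had the highest sums of mural and macrophage markers (25370 and 2945 CPM) and the highest Ifitm3, and replicate 5 the lowest mural sum (8717 CPM) and the lowest Ifitm3. The lowest macrophage sum there was in replicate 2 (1182 CPM, against 1541 CPM in replicate 5), and replicate 4 had 20023 CPM of mural markers with 299.6 CPM of Ifitm3. The part of these cells in the interferon gene levels was not tested.

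**Figure D4:**
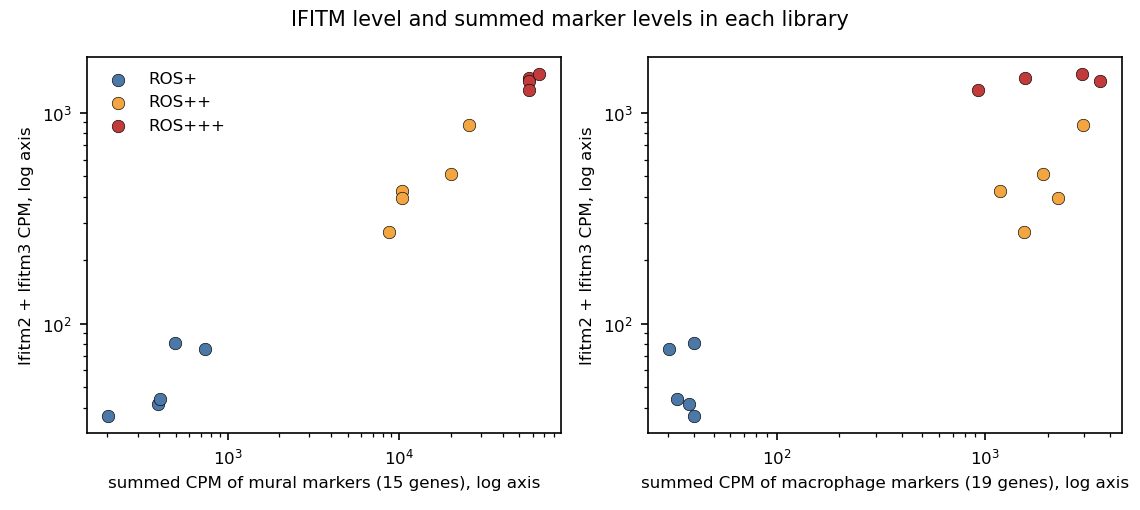
Summed CPM of Ifitm2 and Ifitm3 in each library against the summed CPM of 15 mural markers (left) and 19 macrophage markers (right), all on log axes, coloured by class. Along the mural axis the 3 classes form separate steps, with IFITM sums of 36.4 to 81.2, 272 to 873 and 1288 to 1526 CPM, whereas ROS++ and ROS+++ overlap along the macrophage axis. Such separation is not particular to mural markers. Sums of neuronal precursor markers, not drawn, fell over separate ranges of 12214 to 17718, 1142 to 2691 and 37.2 to 237 CPM.

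The rest of the pathway was followed from its ligands to its targets in a list of 127 other genes, of which 101 were listed and tested. In ROS++ against ROS+, 55 rose and 3 fell (all genes 29.6% called, 16.4% higher and 13.2% lower). In ROS+++ against ROS+, 72 rose and 5 fell (all genes 59.2%, 19.2% higher and 40.0% lower). Between ROS+++ and ROS++, 28 rose and 2 fell (all genes 39.1%, 9.89% higher and 29.2% lower). The medians were 1.07, 1.52 and 0.55, against -0.03, -0.44 and -0.34 for all genes, and kept their sign with every scaling. On the deposited log2 scale, 16 in place of 30 genes were called between ROS+++ and ROS++. None of the 11 interferon genes looked up was among the listed genes. Of 5 receptor subunits, 3 rose between ROS+++ and ROS+, led by Ifngr1, a chain of the interferon gamma receptor, with 42.2 ± 13.0, 130.4 ± 27.2 and 226 ± 28.6 CPM and a change of 2.44 ± 0.21 (limma adjusted p = 3.07e-08). Il10rb, a shared chain of the interferon lambda receptor, rose by 2.12 ± 0.37 and Ifnar2, a chain of the type I receptor, by 1.42 ± 0.40 (adjusted p = 8.56e-05 and 0.00538).

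Between receptor and promoter, 6 of 11 genes for kinases, STATs and interferon regulatory factors rose and 1 fell between ROS+++ and ROS+. Of all tested genes, 19.2% were called higher and 40.0% lower in this comparison. Irf5, a factor of myeloid cells, rose by 3.91 ± 0.47, Jak1 by 1.34 ± 0.16 and Irf3, which responds to viral sensors, by 1.30 ± 0.29 (adjusted p = 1.46e-06, 1.15e-06 and 0.00105). Irf8, a factor of macrophage development, rose by 2.34 ± 0.57 between ROS++ and ROS+ (0.00468). The gene that fell was Stat3, a name chosen after its values were seen, by 0.55 ± 0.22 (0.0419). The median over all genes in that comparison was -0.44, and the other scaling factors raise it by 0.27 to 0.40. Of 10 sensors and adaptors of nucleic acid, 8 rose between ROS+++ and ROS+. Tmem173, the adaptor STING, rose by 4.90 ± 0.42, Myd88, the adaptor of Toll-like receptors, by 4.13 ± 0.31 and Ifih1, the RNA sensor MDA5, by 3.97 ± 0.51 (adjusted p = 1.93e-08, 3.86e-09 and 2.93e-06). Tlr7, an endosomal RNA receptor, averaged 8.56 ± 4.82 CPM in ROS+++ against 0.00938 ± 0.0210 CPM in ROS+.

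Inhibitors and effectors followed, again beside 19.2% of all tested genes called higher and 40.0% called lower in ROS+++ than in ROS+. Of 4 negative regulators, 3 rose between ROS+++ and ROS+, namely Ptpn6, a phosphatase of blood cells, by 4.16 ± 0.44, Usp18, which removes ISG15 from proteins, by 2.81 ± 0.57 and Socs3, an inhibitor of cytokine receptors, by 2.53 ± 0.66 (limma adjusted p = 3.4e-07, 0.000394 and 0.00311). Of 44 other antiviral effector genes, 31 rose and 3 fell. The rises were led by Slfn2, a Schlafen gene of leukocytes, with 65.1 ± 40.9 CPM in ROS+++ against 0.0535 ± 0.120 CPM in ROS+ (5.75 ± 0.48, adjusted p = 1.56e-08), and by Ifi204, which had 33.8 ± 2.85 CPM in ROS+++ and no read in any ROS+ library. Ifi35 (4.51 ± 0.40) and Lgals3bp (4.25 ± 0.33) came next. Among the falls were Adar, an RNA editing enzyme, by 1.41 ± 0.30, and Cmpk2, a mitochondrial nucleotide kinase, by 2.54 ± 0.41 (adjusted p = 0.000533 and 4.31e-05), both named after their values were seen. Among 23 GTPase and antigen processing genes typical of interferon gamma, 19 rose and 0 fell. Gbp7 rose by 3.59 ± 0.57, the immunoproteasome gene Psmb9 by 3.41 ± 0.59, Gbp2 by 3.39 ± 0.62 and Irgm2 by 2.95 ± 0.56 (adjusted p = 4.02e-05, 8.89e-05, 0.000141 and 0.000209).

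**Figure D5:**
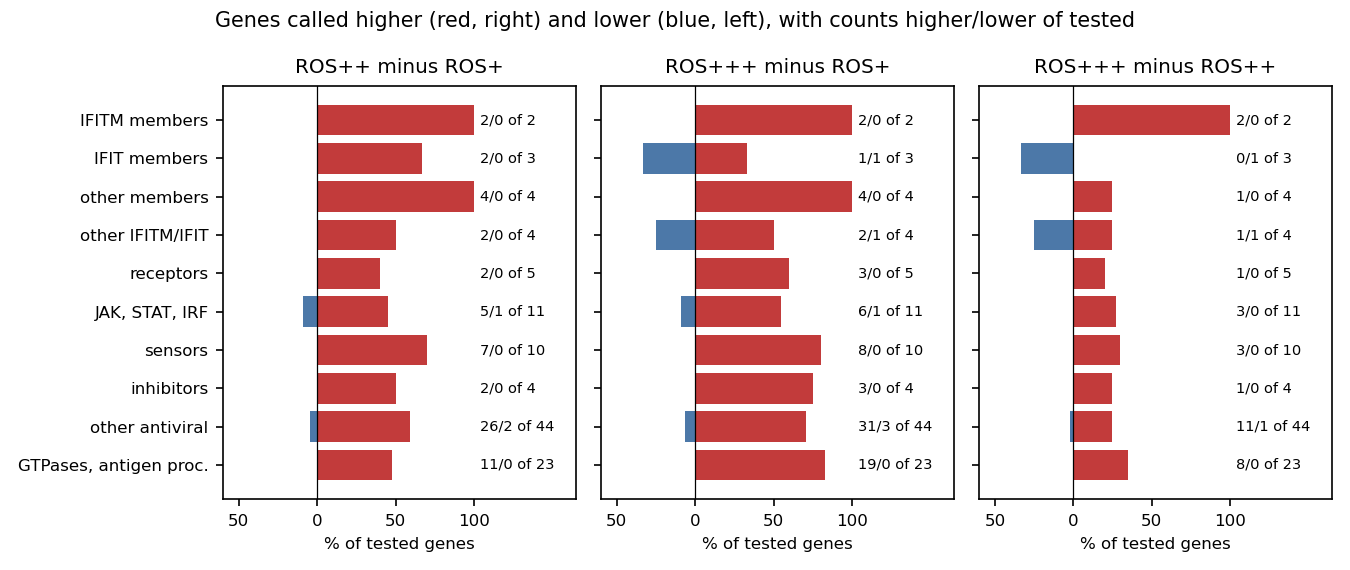
Share of tested genes called higher (bars to the right) and lower (bars to the left) in each group of members and of other pathway genes (rows), for 3 comparisons (panels), with counts higher/lower of tested beside them. IFITM members are called higher in all panels, and of the IFIT members 1 of 3 is called lower in both panels with ROS+++.

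Genes outside the 9 whose profiles were most like those of a member were named by the smallest root-mean-square difference of centred log2(CPM + 1) over 14 libraries. For Ifitm3 these were Bgn, a matrix proteoglycan (0.24), Myh9, the heavy chain of non-muscle myosin (0.28) and S100a11, a calcium-binding protein (0.29). Bgn averaged 54.8 ± 30.1, 530.5 ± 227 and 1670.4 ± 264 CPM. For Bst2 they were Sft2d2 (0.42), the transferrin gene Trf (0.51) and the blood cell transcription factor gene Runx1 (0.53). For Isg15 they were Alg14 (0.42), the phosphatase gene Dusp6 (0.43) and Rflna (0.44), and for Irf7 they were Fez2 (0.61), Calhm5 (0.69) and the antigen-presenting gene H2-K1 (0.70). Likeness to Ifit1 was weaker, with Skap2 at 0.81, Gm973 at 0.91 and Fam81a at 0.95. Of these 15 genes, H2-K1 is 1 that also stands in the list of other pathway genes.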

How the data were processed

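RNA-seq libraries of sorted cells (5 ROS+, 5 ROS++, 4 ROS+++) were analysed from 1 deposited table of log2 values, all 14 columns used. The submitters' processing notes name STAR, edgeR and the build mm10. Of versions, counting step and annotation, nothing was given in the sources used here. Values in the deposited table are log2, on a CPM scale with a small added constant: above the lowest value of each library, every value came out as a whole number of reads (tolerance 0.001 reads). Per the labels' protocols, cDNA was primed with poly-dT and amplified over 12 cycles, and neither molecular identifiers nor a strand are mentioned.

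Reads and CPM over library totals were recovered. Since the unit is log2, limma-trend (limma 3.58.1, statmod 1.5.0, R 4.3.3) on log2(CPM + 1), ran over all 14 libraries with 1 mean per class and 11 residual degrees of freedom. Genes needed 1 CPM in 4 libraries (15102 kept, 17 removed). The Benjamini-Hochberg threshold was 0.05. The fit was also run on simulated counts, with the same spread for every gene and few genes changed. Several members vary more and far more genes differ here, so that run does not bear on their calls. GENCODE M21 (GRCm38) gave names for 15065 genes, coordinates and exon lengths. RefSeq gave promoters.

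The members, lists and tests were chosen with earlier results of these data known. Named genes were all 9 members, the called genes with the largest change of each pathway list (at most 4) and the 3 most alike to each of Ifitm3, Ifit1, Isg15, Irf7 and Bst2. Alternatives covered pseudocounts, filters, scaling, limma-voom, moderation, classes fitted, library-number sets and each replicate left out. Results for some genes of the pathway lists are not reported here, though the counts include them.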

Additional observations from a re-analysis of the deposited data

How the results depend on the processing

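For 27 pairs of member and comparison, 26 alternatives each gave 702 changes, of which 658 kept direction and side of the threshold, 35 lost the call, 1 gained it and 8 changed sign. In 16 pairs nothing changed, among them every comparison of Ifitm2, Ifitm3 and Bst2. The sign changes all concern differences that had not passed the test. Leaving out 1 replicate each gave -0.0030 to 0.32 for Ifit2 in ROS++ minus ROS+, -0.076 to 0.22 for Ifit3 in ROS+++ minus ROS++ and -0.35 to 0.018 for Irf9 in ROS+++ minus ROS++. Irf9 also turned to 0.17, 0.25 and 0.11 with TMM, relative log expression and upper-quartile factors, which raise ROS+++ as a whole. Members called between ROS++ and ROS+ numbered 5 to 8 over the replicates left out, with 5 without ROS++ replicate 1. For the other pathway genes between ROS+++ and ROS++, the count was 16 on the deposited log2 scale, 21 to 33 over the replicates left out and 45 with relative log expression factors, against 30. The cause was not tested. A replicate block built from consecutive library numbers, which the labels do not call pairs, gave 8 called members in ROS++ against ROS+, 7 in ROS+++ against ROS+ and 4 in ROS+++ against ROS++, where 8, 8 and 4 were called without it. The member lost was Irf9. Of 13 same-set pairs of libraries, 3 had a correlation of deviations above 0.1. In 9 of the 13, the same-set library was the best match among the 5 libraries of the other class. The main fit holds no term for these sets, and whether their libraries were collected or processed together was not tested. Depth limits Isg15, with 12 to 45 reads in the ROS+ libraries, and Ifit1, Irf7 and Bst2, whose lowest ROS+ library held 0, 0 and 1 reads.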
